A study of Mus musculus with 12 samples.

Results

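A set of 9 chemokine genes were followed by name in RNA-seq libraries of mesenchymal stem cells from mouse bone marrow: Cxcl1, Cxcl5, Cxcl14, Cxcl16, Ccl2, Ccl5, Ccl7, Ccl8 and Cx3cl1. All 9 were found among the 23358 gene rows of the count table by their symbols, and 6 of them were tested, because Cxcl5, Ccl5 and Ccl8 had too few counts to pass the filter on low values. The mesenchymal stem cells are adherent marrow stromal cells that can become bone, fat or cartilage cells. Cultures grew in 10% serum, were seeded at 10000 cells per cm2 and rested for 1 day before treatment. The 4 groups had 3 libraries each. Ctrl cells were left untreated, CytoD cells received cytochalasin D, CK cells received CK666, and CytoD+CK cells received both compounds, each for 24 h. Cytochalasin D caps the growing ends of actin filaments, and CK666 inhibits the Arp2/3 complex, which starts new branches on filaments. No genotype, strain or age is given in the labels, nor are the concentrations or a solvent control. Nothing in the labels tells what a replicate is (an animal, an isolation or a dish), so the p-values rest on a spread between libraries that may be only technical.

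Chemokines are small proteins that guide migrating cells through receptors coupled to G proteins. CXC chemokines with the neutrophil-attracting motif, such as CXCL1 and CXCL5, act on CXCR2. The CC chemokines CCL2 and CCL7 attract monocytes, mainly through CCR2, and CCL5 attracts T cells and monocytes. CXCL16 and CX3CL1 are made as membrane proteins with a chemokine head on a mucin stalk and can be shed by the proteases ADAM10 and ADAM17. In marrow, stromal CCL2 is known for releasing monocytes into the blood, and transcription of several of these genes is driven by NF-kB.

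The promoter sequences shown first are those of the tested members that a reference table of RefSeq promoters on GRCm38.p6 held, because 2 of these genes rose together with CytoD and the third fell in every treated group. Each window runs from 250 bases before to 50 bases after the annotated start, and 4 of 9 members (Cxcl1, Cxcl14, Ccl8 and Cx3cl1) had one. They are printed 5′ to 3′ on the gene's strand, and the capitals mark the NF-kB consensus in Cxcl1 and the letters TATAAA in Cx3cl1.
Cxcl1 (chr5:90890995-90891294, plus strand): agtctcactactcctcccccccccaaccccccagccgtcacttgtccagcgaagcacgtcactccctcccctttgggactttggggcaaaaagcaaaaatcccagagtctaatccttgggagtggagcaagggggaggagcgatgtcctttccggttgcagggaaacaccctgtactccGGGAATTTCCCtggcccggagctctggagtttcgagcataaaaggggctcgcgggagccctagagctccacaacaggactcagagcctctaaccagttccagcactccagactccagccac
Cxcl14 (chr13:56296502-56296801, minus strand): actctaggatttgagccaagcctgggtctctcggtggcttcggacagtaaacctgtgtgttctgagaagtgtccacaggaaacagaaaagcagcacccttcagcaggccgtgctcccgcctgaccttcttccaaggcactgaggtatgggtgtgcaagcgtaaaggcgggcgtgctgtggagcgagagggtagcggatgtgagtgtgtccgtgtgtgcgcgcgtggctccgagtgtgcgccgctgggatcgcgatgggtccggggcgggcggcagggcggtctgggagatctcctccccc
Cx3cl1 (chr8:94771930-94772229, plus strand): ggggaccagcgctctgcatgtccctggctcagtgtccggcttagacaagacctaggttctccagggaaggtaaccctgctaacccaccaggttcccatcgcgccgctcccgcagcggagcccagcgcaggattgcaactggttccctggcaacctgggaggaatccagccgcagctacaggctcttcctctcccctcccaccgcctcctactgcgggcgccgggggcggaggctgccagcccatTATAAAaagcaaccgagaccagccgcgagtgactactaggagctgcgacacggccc
Both strands were searched for 4 motifs. The NF-kB consensus was found in the Cxcl1 window, where a match on the plus strand and one on the minus strand overlapped and together covered positions -71 to -61 from the start, and 8.46% of all 32851 mouse windows hold it. It was not found in the windows of Cxcl14, Ccl8 or Cx3cl1. TATAAA, present in 13.6% of all windows, lay at positions -6 to -1 in Cx3cl1 and -32 to -27 in Ccl8. AP-1 sites (TGANTCA, 7.81% of windows) and the CArG box (1.63%) were found in none of the 4 windows. These matches describe letters in the windows and say nothing of binding.

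The library totals lay between 48930210 and 69269716 counts, and every count in the table was even. With 0 counts, a level of up to 3 counts remains possible, or at most 0.0634 CPM (counts relative to the scaled total of a library), the value for Ctrl replicate 2; this limit covers counting error alone and would be larger if the 2 reads of a fragment each added a count. Replicate 3 of the CK group stood apart. Its median absolute log2 difference from CK replicates 1 and 2 was 0.289 and 0.276, against 0.126 between those and 0.0771 to 0.141 within the other groups. Relative to replicates 1 and 2 it was lower in longer genes (r of their log2 difference with log length 0.377 and 0.465, across genes, which are not independent replicates), so the members' changes in CK against Ctrl and the called interactions are also given without this library. Of 16 marrow stromal marker genes 15 were tested, and their summed level was at least 15800 CPM in every library. The largest parts in Ctrl were Col1a2 (mean 9220 CPM), Cxcl12 (8330), Col1a1 (5670) and Vim (5050). Pdgfra, Pdgfrb and Prrx1 stood at 245 to 732 CPM. Other markers were low in Ctrl, with Eng at 2.3, Lepr at 0.607, Alcam at 0.41 and Nt5e at 0.16 CPM, and Thy1 had under 10 counts in each library. In bulk RNA, fewer cells of a type and less RNA per cell cannot be told apart.

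Untreated cells expressed 3 of the 9 chemokines at high levels. Per length, in the authors' RPKM (reads scaled to gene length and library size), Ccl7 stood at 46.2 ± 4.63, Ccl2 at 41.7 ± 4.8 and Cx3cl1 at 29.1 ± 2.51 (SD, n = 3). Cxcl1 followed with 3.02, Cxcl16 with 1.48 and Cxcl14 with 0.614 RPKM. The RPKM of the 9 genes summed to 122 ± 6.07 in Ctrl, 109 ± 2.29 in CytoD, 157 ± 26.4 in CK and 117 ± 20.9 in CytoD+CK. The makeup of that sum shifted more than its size. Cx3cl1 made up 23.9% of it in Ctrl, 13.0% with CytoD, 8.89% with CK666 and 8.47% with both. Cxcl1 went from 2.48% in Ctrl to 11.7% with CytoD, and Ccl2 from 34.0% to 24.0% with CytoD and 46.8% with CK666. These shares are descriptions of group means, with no test. The CK sum and shares include replicate 3, the library that stood apart. In CK replicates 1 to 3, Ccl2 was at 59.0, 76.2 and 86.1 RPKM and Ccl7 at 46.6, 54.9 and 77.4 RPKM.

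**Figure D1:**
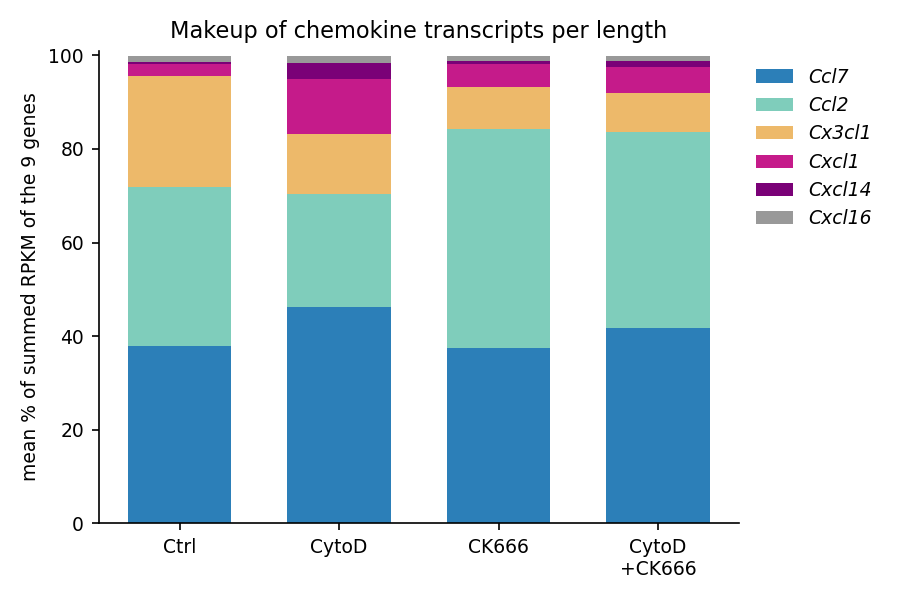
Mean percent of the summed RPKM of the 9 chemokine genes (vertical axis) in each of the 4 groups (horizontal axis), with 1 coloured segment per gene; Cxcl5, Ccl5 and Ccl8 are too small to be seen and not drawn. Ccl7 and Ccl2 fill most of every bar, the Cx3cl1 segment is tallest in Ctrl (23.9%), and the Cxcl1 segment is tallest with CytoD (11.7%).

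Levels from here on are TMM-scaled CPM, changes are log2 fold changes (log2FC) with their SE, and p-values are from edgeR's quasi-likelihood test, adjusted by Benjamini and Hochberg over 13534 genes within a comparison. A gene is called at an adjusted p under 0.05. Among all tested genes 37.9% were called in CytoD against Ctrl (19.1% higher, 18.9% lower), 41.1% in CK against Ctrl (22.5% higher, 18.7% lower) and 46.0% in CytoD+CK against Ctrl (24.4% higher, 21.6% lower). The shares were 30.1% in CytoD+CK against CytoD (15.8% higher, 14.3% lower), 11.6% in CytoD+CK against CK (4.43% higher, 7.17% lower) and 39.8% in CK against CytoD (22.9% higher, 16.8% lower). For the interaction, the CytoD+CK against CK change less the CytoD against Ctrl change, 14.3% were called (6.63% higher, 7.67% lower).

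Of the 6 tested members, 2 rose and 2 fell with CytoD, 2 rose and 1 fell with CK666, and 2 rose and 1 fell with both, each against Ctrl. These comparisons share the Ctrl libraries. The members' median absolute log2FC was 0.919, 0.648 and 0.693 in the 3 comparisons, beside 0.259, 0.283 and 0.306 over all genes tested. With so large a share of all genes called, the members' counts are read against that background, and their median signed log2FC (0.135, 0.422 and 0.0819) describes no common direction. Between treated groups, 1 member rose and 3 fell when CK666 was added to CytoD, 0 rose and 1 fell when CytoD was added to CK666, and 1 was higher and 2 were lower with CK666 than with CytoD. The median absolute log2FC of the members was 0.751, 0.481 and 0.512 there, beside 0.22, 0.176 and 0.273 over all genes.

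**Figure D2:**
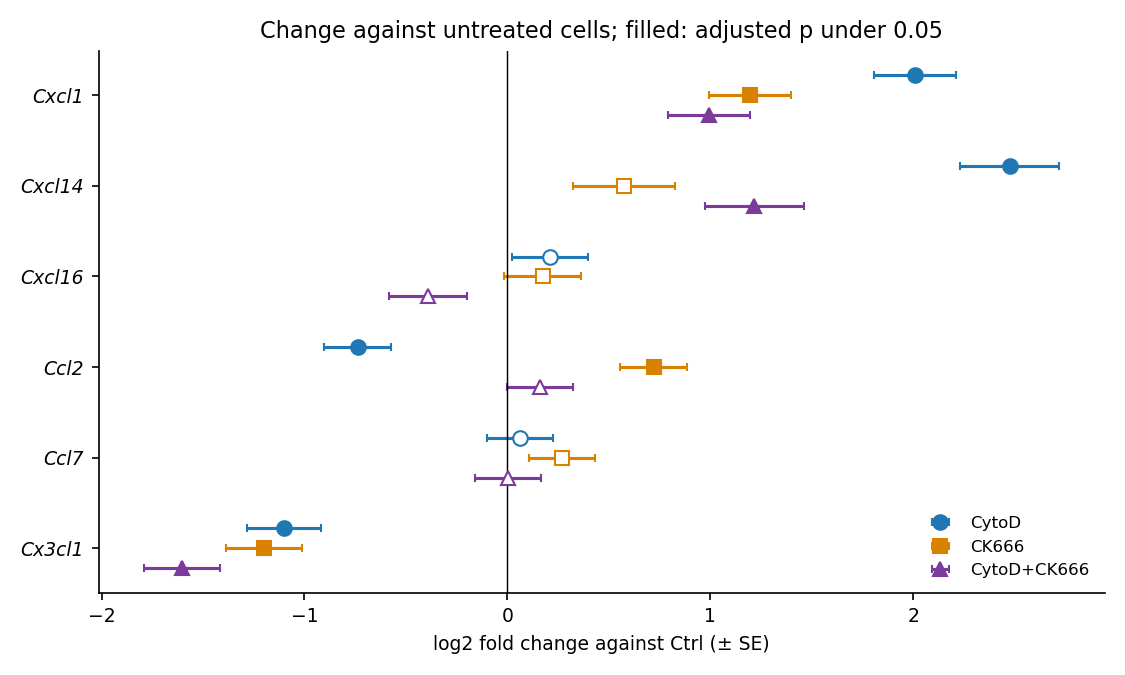
Log2 fold change against untreated cells (horizontal axis, bars are SE) of the 6 tested chemokines (rows) for CytoD (circles), CK666 (squares) and both compounds (triangles), with filled symbols at an adjusted p under 0.05. Cxcl1 lies right of 0 under all 3 treatments and Cx3cl1 left of 0, while Ccl2 lies left with CytoD (-0.74) and right with CK666 (0.72).

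The neutrophil-attracting CXC chemokines were represented by Cxcl1 (chromosome 5, 90891245 to 90893115), which rose under every treatment and most with CytoD alone. Its level was 4.07, 2.92 and 3.23 CPM in Ctrl replicates 1 to 3, and 14.2, 14.3 and 12.7 CPM with CytoD. CK666 gave 10.5, 6.65 and 6.32 CPM, and both compounds gave 8.06, 5.64 and 6.71 CPM. The Ctrl libraries were the lowest and the CytoD libraries the highest, with no overlap between either of them and any other group, whereas CK and CytoD+CK overlapped. Against Ctrl, Cxcl1 was 4.03-fold higher with CytoD (log2FC 2.01, SE 0.202, adjusted p = 1.07e-05), 2.29-fold with CK666 (1.20, SE 0.202, adjusted p = 0.000466) and 1.99-fold with both (0.99, SE 0.202, adjusted p = 0.00134). Without CK replicate 3 the log2FC with CK666 was 1.29 (adjusted p = 0.000179). Adding CK666 to CytoD lowered it 2.02-fold (log2FC -1.02, SE 0.19, adjusted p = 0.00145). Adding CytoD to CK666 gave a log2FC of -0.20 (95% interval -0.616 to 0.215, adjusted p = 0.516). The order of its levels was CytoD, CK, CytoD+CK and Ctrl, and only the middle neighbours did not differ by the test.

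Of the other chemokine genes encoded nearby, none reached 1 CPM in a library. Cxcl5, another CXCR2 ligand (chromosome 5, 90759299 to 90761625), had 2 counts in 1 Ctrl library, 2 counts in each of 2 CytoD libraries, 4 counts in 1 CytoD+CK library and 0 in the other 8 libraries. Of its 50-base stretches 0.693% also occur in another gene, so single reads are uncertain. Cxcl2, which begins 10.8 kb beyond Cxcl1, had 8 counts over all 12 libraries. The 7 chemokine genes of this stretch of chromosome 5 (Cxcl5, Ppbp, Pf4, Cxcl3, Cxcl15, Cxcl1 and Cxcl2) span 147 kb, and Cxcl1 was the one with levels above 1 CPM. Cxcl15, whose product is known from lung, went from 4, 8 and 2 counts in Ctrl to 20, 14 and 16 with CytoD (log2FC 1.69, SE 0.53). It passed the low-count filter only with the CytoD libraries, where it was highest, so its call does not test that rise. Pf4, a platelet chemokine named after its values were seen, had 0, 0 and 2 counts in Ctrl and 14, 8 and 10 with CytoD, and was not tested.

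Cxcl14 (chromosome 13, 56288643 to 56296551), a chemokine of epithelial and stromal cells that attracts monocyte-lineage cells, rose with CytoD and with both compounds. Its Ctrl levels lay close together at 1.3, 1.31 and 1.39 CPM, and its CytoD levels were 5.92, 8.22 and 8.16 CPM. CK666 gave 1.42, 1.82 and 2.69 CPM and both compounds gave 2.29, 3.58 and 3.42 CPM. All 3 CytoD libraries exceeded every other library, and the CytoD+CK libraries overlapped only the highest CK library, replicate 3. The change against Ctrl was 5.57-fold with CytoD (log2FC 2.48, SE 0.243, adjusted p = 9.07e-06) and 2.33-fold with both (1.22, SE 0.246, adjusted p = 0.00126). With CK666 alone the log2FC was 0.58 (SE 0.252, adjusted p = 0.0847), which did not pass, and without CK replicate 3 it was 0.235 (adjusted p = 0.47). It was called without CK replicate 1 (0.764, adjusted p = 0.0273) and with the replicate number as a block (0.545, adjusted p = 0.0331). Adding CK666 to CytoD lowered Cxcl14 2.39-fold (log2FC -1.26, SE 0.222, adjusted p = 0.000986). CytoD added to CK666 gave a log2FC of 0.64 (SE 0.234, adjusted p = 0.0922), which became 0.956 (adjusted p = 0.0143) without CK replicate 3. Over the 12 libraries the log2 levels of Cxcl14 and Cxcl1 had a Pearson r of 0.773, a description over 4 groups that share treatment and library.

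**Figure D3:**
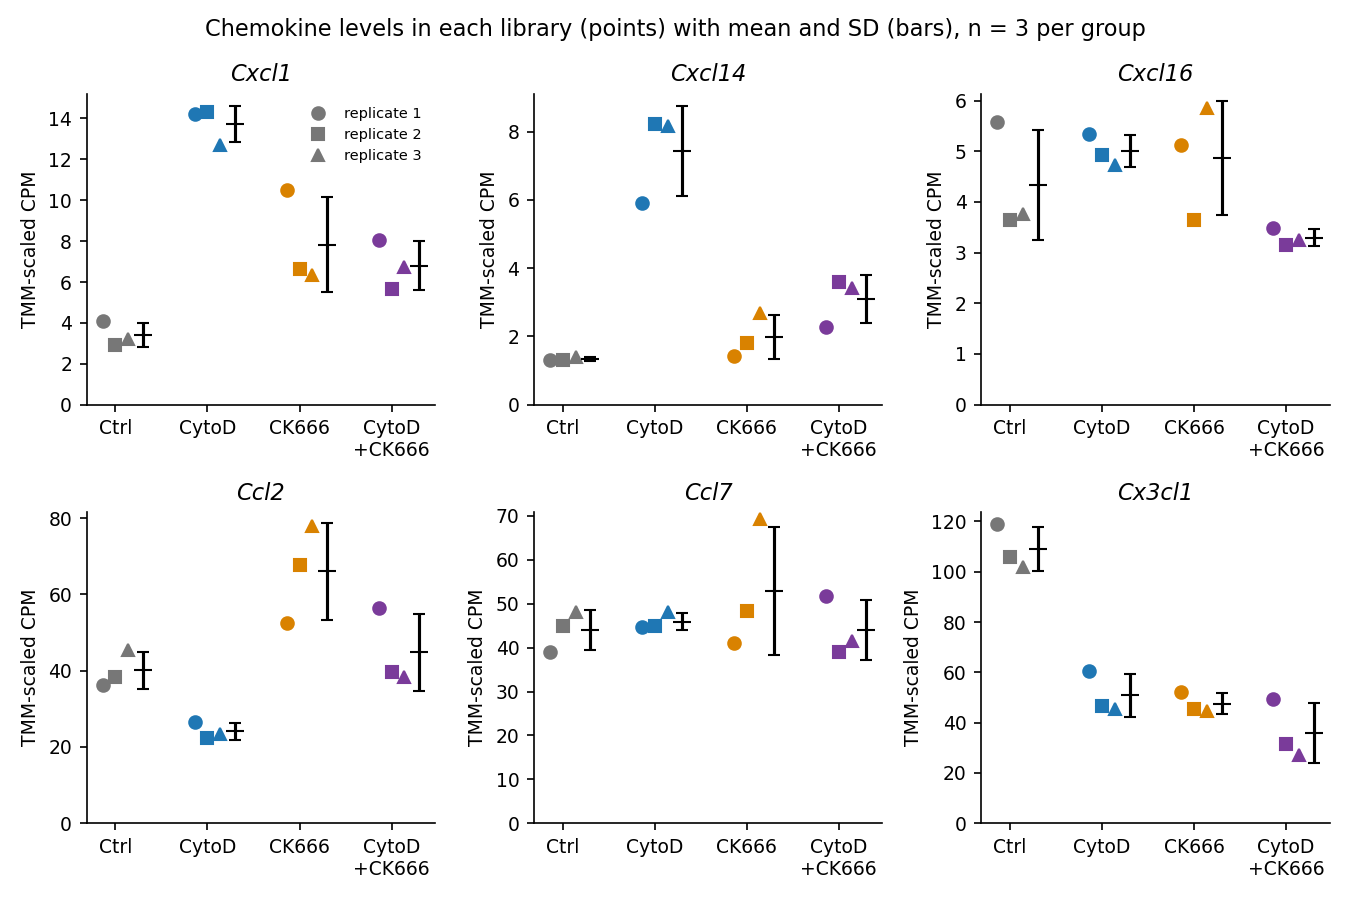
TMM-scaled CPM (vertical axes, from 0) of the 6 tested chemokines in each library, with 1 panel per gene, marker shape for the replicate number, and a black bar for the mean and SD of 3 libraries per group (horizontal axes). CytoD libraries are highest for Cxcl1 and Cxcl14, CK libraries are highest for Ccl2 with the exception of 1 CytoD+CK library above the lowest CK library, and Ctrl libraries are highest for Cx3cl1 (102 CPM or more).

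For Cxcl1 and Cxcl14 the change with CytoD depended on CK666. Without CK666 their log2FC with CytoD was 2.01 and 2.48, and in its presence it was -0.20 and 0.64. The difference of these changes was -2.21 for Cxcl1 (SE 0.278, adjusted p = 0.000437) and -1.84 for Cxcl14 (SE 0.336, adjusted p = 0.00382). Both calls were the same without CK replicate 3 (-2.32 and -1.51, adjusted p = 8.22e-05 and 0.0035). These were the 2 of 6 members called for the interaction, beside 14.3% of all genes. The other 4 did not pass, with -0.78 for Cxcl16 (adjusted p = 0.0711), 0.18 for Ccl2 (95% interval -0.32 to 0.678, adjusted p = 0.65), -0.33 for Ccl7 (adjusted p = 0.379) and 0.70 for Cx3cl1 (adjusted p = 0.0909).

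**Figure D4:**
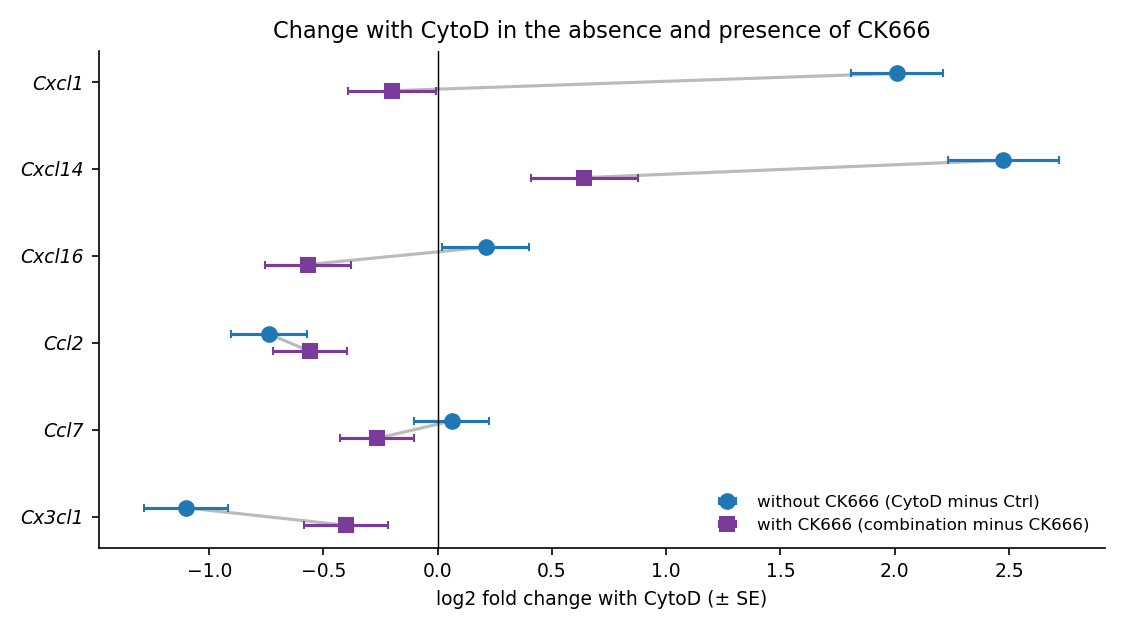
Log2 fold change with CytoD (horizontal axis, bars are SE) of the 6 tested chemokines (rows), measured without CK666 (circles, CytoD against Ctrl) and with it (squares, CytoD+CK against CK), joined by a grey line. The lines of Cxcl1 (2.01 to -0.20) and Cxcl14 (2.48 to 0.64) are the longest, and that of Ccl2 is the shortest.

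The 2 transmembrane chemokines differed. Cx3cl1, also called fractalkine (chromosome 8, 94772180 to 94782426), fell under every treatment. Its level was 119, 106 and 102 CPM in the Ctrl libraries. CytoD gave 60.6, 46.5 and 45.4 CPM, CK666 gave 52.2, 45.5 and 44.6 CPM, and both compounds gave 49.4, 31.3 and 27.0 CPM. Every treated library lay below every Ctrl library, and the 3 treated groups overlapped one another. The fall was 2.14-fold with CytoD (log2FC -1.10, SE 0.184, adjusted p = 0.000485), 2.30-fold with CK666 (-1.20, SE 0.185, adjusted p = 0.000226) and 3.04-fold with both (-1.60, SE 0.187, adjusted p = 1.45e-05). Without CK replicate 3 the value for CK666 was -1.20 (adjusted p = 0.000403). CK and CytoD did not differ by the test (log2FC -0.10, 95% interval -0.495 to 0.296, adjusted p = 0.689). The further change when CK666 was added to CytoD was -0.50 (SE 0.184) with an adjusted p of 0.055, so that 1 call turned on the settings: DESeq2 gave an adjusted p of 0.0167, and the fit without replicate 1 of the combination, its highest library, gave -0.799 (adjusted p = 0.00101). Against CK the combination gave -0.40 (adjusted p = 0.167), and -0.702 (adjusted p = 0.00578) without that library. The 3 genes whose log2 levels followed Cx3cl1 most closely over the 12 libraries were Fam20c (Pearson r 0.987), Ccdc109a (0.985) and Tpm3 (0.983), without a p.

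Cx3cl1 lies between 2 other chemokine genes on chromosome 8, Ccl22 (20.8 kb away) and Ccl17 (28.0 kb away), both ligands of CCR4. Ccl17 had 20, 22 and 26 counts in Ctrl, 12, 4 and 0 with CytoD, 4 in each CK library, and 2, 4 and 0 with both. Ccl17 too was called lower with CytoD, CK666 and both. However, it passed the low-count filter only with the Ctrl libraries, where it was highest, so these calls do not test the fall. Ccl22, named here after its values were seen, had 16 counts in 1 Ctrl library, 2 in 1 CytoD library and 0 in the other 10, too few to test.

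Cxcl16, the other membrane-bound chemokine and the ligand of CXCR6 (chromosome 11, 70454234 to 70459984), changed little. Ctrl libraries had 5.58, 3.64 and 3.76 CPM, CytoD libraries 5.34, 4.93 and 4.73 CPM, and CK libraries 5.12, 3.64 and 5.85 CPM. With both compounds it was 3.48, 3.16 and 3.25 CPM. The combination was the lowest group, below every library of the others, and the other 3 groups overlapped. Against Ctrl no treatment passed the test, with a log2FC of 0.21 for CytoD (95% interval -0.199 to 0.619, adjusted p = 0.411), 0.18 for CK666 (-0.234 to 0.584, adjusted p = 0.488) and -0.39 for both (-0.808 to 0.022, adjusted p = 0.113). The value for CK666 was -0.0229 (adjusted p = 0.937) without CK replicate 3. Against CytoD the combination was lower by 1.52-fold (log2FC -0.60, SE 0.19, adjusted p = 0.0297), a call lost in all 6 fits that left out 1 library of either group (adjusted p 0.0507 to 0.0942). Its row overlaps that of Zmynd15, which had at most 28 counts in a library.

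The CC chemokines Ccl2 (chromosome 11, 82035577 to 82037452) and Ccl7 (82045712 to 82047523) are neighbours, 8.26 kb apart, and both attract monocytes through CCR2. Ccl2 changed in opposite directions with the 2 compounds. It had 36.2, 38.4 and 45.5 CPM in Ctrl, 26.5, 22.2 and 23.4 CPM with CytoD, and 52.5, 67.7 and 77.8 CPM with CK666. Both compounds together gave 56.5, 39.7 and 38.3 CPM. The 3 CytoD libraries were the lowest of all 12, and no CK library fell into the Ctrl range, while the combination overlapped both Ctrl and CK. Ccl2 fell 1.67-fold with CytoD (log2FC -0.74, SE 0.165, adjusted p = 0.00354) and rose 1.65-fold with CK666 (0.72, SE 0.163, adjusted p = 0.00349). CK666 against CytoD was a 2.75-fold difference (log2FC 1.46, SE 0.166, adjusted p = 3.32e-05), and without CK replicate 3 its log2FC was 1.29 (adjusted p = 4.12e-05). Without that library the rise against Ctrl was 0.542 (adjusted p = 0.0139).

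With both compounds Ccl2 stood near its untreated level, with a log2FC against Ctrl of 0.16 (95% interval -0.19 to 0.514, adjusted p = 0.448). Adding CK666 to CytoD raised it 1.87-fold (log2FC 0.90, SE 0.165, adjusted p = 0.00126). Adding CytoD to CK666 lowered it 1.47-fold (-0.56, SE 0.162, adjusted p = 0.0427), and this was the 1 member called in that comparison, beside 11.6% of all genes. The call was lost without CK replicate 2 (adjusted p = 0.06) or 3 (0.0986), without replicate 2 (0.155) or 3 (0.175) of the combination, and when only these 2 groups were fitted (0.159). The genes with the most similar levels over the 12 libraries were Fzr1 (Pearson r 0.961), Sept9 (0.96) and Unc119 (0.959).

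Ccl7 passed no test in any of the 7 comparisons. Its libraries held 39.0, 45.0 and 48.1 CPM in Ctrl, 44.6, 45.0 and 48.1 CPM with CytoD, 41.1, 48.4 and 69.3 CPM with CK666, and 51.8, 38.9 and 41.5 CPM with both. Apart from CK replicate 3, the highest, the libraries of all groups ran through the same range. The log2FC against Ctrl was 0.06 with CytoD (95% interval -0.291 to 0.413, adjusted p = 0.797), 0.27 with CK666 (-0.0841 to 0.62, adjusted p = 0.206) and 0.00 with both (-0.35 to 0.354, adjusted p = 0.995). The value with CK666 was -0.0183 (adjusted p = 0.916) without CK replicate 3 and 0.421 (adjusted p = 0.042) without CK replicate 1. The genes most like it were Ankrd39 (Pearson r 0.88), Polr2c (0.853) and Psmg2 (0.852).

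The ratio of Ccl2 to Ccl7 counts within a library needs no scaling between libraries, because both counts come from the same library. The 2 genes are also close in length (806 bases for Ccl2 and 799 for Ccl7). There were 0.928, 0.855 and 0.948 Ccl2 counts per Ccl7 count in Ctrl, 0.594, 0.493 and 0.487 with CytoD, 1.28, 1.4 and 1.12 with CK666, and 1.09, 1.02 and 0.923 with both. The CytoD ratios lay below and the CK ratios above those of all other groups, including CK replicate 3, while the ratios of the combination overlapped Ctrl. The geometric mean was 1.74-fold lower with CytoD than in Ctrl and 1.39-fold higher with CK666, and 2.41-fold higher with CK666 than with CytoD. A 2-sided exact permutation test gave p = 0.1 for each of these, the smallest p that 3 libraries against 3 allow (0.12 after Benjamini-Hochberg adjustment over 6 pairs of groups), and p = 0.3 for both compounds against Ctrl. The design cannot reach 0.05, and the test over single genes above is the one that carries a call.

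**Figure D5:**
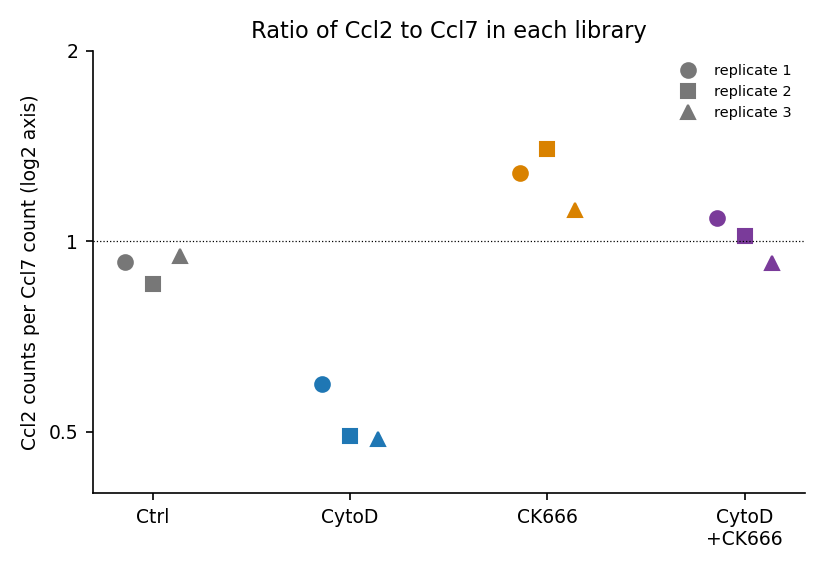
Ccl2 counts per Ccl7 count (vertical axis, log2 scale) in each of the 3 libraries per group (horizontal axis), with marker shape for the replicate number and a dotted line at 1. CytoD libraries lie between 0.487 and 0.594, CK libraries between 1.12 and 1.4, and the other groups near 1.

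The other CC members stayed near the floor. Ccl8, encoded in the same stretch as Ccl2 (chromosome 11, 82115185 to 82116799), had 4, 0 and 2 counts in Ctrl, 4, 2 and 4 with CK666, 0 in all CytoD libraries, and 0, 0 and 2 with both. Ccl5, which attracts T cells (chromosome 11, 83525779 to 83530518), had 0 counts in all 3 Ctrl libraries, 2, 6 and 0 with CytoD, 8, 2 and 0 with CK666, and 2, 12 and 6 with both. None of these exceeded 0.169 CPM in a library. In the fit without the filter, which is the one that holds them, neither gene nor Cxcl5 was called in any comparison, and the lowest adjusted p was 0.0515, for Ccl5 with both compounds against Ctrl. Changes in these 3 genes were not detectable at this depth. All 4 Ccl members lie within the row of a multi-copy microRNA that had 0 counts.

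In the 144 kb stretch that holds Ccl2, Ccl7, Ccl11, Ccl12, Ccl8 and Ccl1, high counts were limited to Ccl2 and Ccl7. Ccl11, which attracts eosinophils, was far lower, with 0, 2 and 2 counts in Ctrl, 2, 2 and 0 with CytoD, 12, 10 and 18 with CK666, and 2, 0 and 4 with both. It passed the low-count filter only through the CK libraries, so its call against Ctrl does not test that rise. The cluster further along holds Ccl5, Ccl9, Ccl6, Ccl3 and Ccl4, the last with 0 counts in every library. Ccl9, which attracts myeloid cells, fell 1.83-fold with CytoD (53.0, 55.4 and 61.4 CPM in Ctrl, and 38.2, 27.2 and 27.4 CPM with CytoD, adjusted p = 0.00502), while Ccl6, a gene 9.25 kb away, rose 6.18-fold (0.448, 0.338 and 0.789 CPM to 3.33, 3.19 and 3.36 CPM, adjusted p = 1.04e-05). Ccl3, which attracts monocytes and T cells, had 2, 0 and 14 counts in Ctrl, 24, 44 and 44 with CytoD, and 6, 2 and 0 with both. Its log2FC was 2.66 (SE 0.756) with CytoD and -3.86 (SE 0.843) when CK666 was added to CytoD. It passed the low-count filter through the CytoD libraries, where it was highest, so its calls do not test these differences. Neighbouring chemokine genes did not all change in 1 direction.

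Among the 29 other chemokine ligands in the table, 10 had no count in any library and 11 were tested. With CytoD 5 rose and 2 fell, with CK666 3 rose and 2 fell, and with both 4 rose and 3 fell, each against Ctrl. Of all tested genes, 37.9%, 41.1% and 46.0% were called in these comparisons. Without CK replicate 3, 2 ligands rose and 2 fell with CK666, and the share of all genes in that fit is not given here. Some of the ligands passed the low-count filter only through the group where they were high. Cxcl12, which retains blood stem cells in the marrow, was the most abundant of them and had the same sign of interaction as Cxcl1: its log2FC with CytoD was 1.12 without CK666 (adjusted p = 8.09e-05) and -0.0517 with it (adjusted p = 0.843), a difference of -1.17 (SE 0.206, adjusted p = 0.00304). Ccl6 also passed the interaction (-1.45, SE 0.355, adjusted p = 0.0179). Cxcl10, a target of interferon that attracts T cells, had 0 counts in all Ctrl libraries and 14, 32 and 12 with both compounds, with 0 to 4 counts in each library of the single compounds. It passed the low-count filter only through the CytoD+CK libraries, so its call there does not test that rise.

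Receptors through which the members act were scarce. Of 18 chemokine receptors found, 7 were tested, and edgeR called 0 of them in each of the 7 comparisons, as did DESeq2. Of all tested genes, 11.6% to 46.0% were called, but at the receptors' low levels a lack of calls does not show a lack of change. At most 2 had an unadjusted p under 0.05, in CK against Ctrl. Ccr2 and Cxcr1 had 0 counts in every library, Cx3cr1 had 6 and Cxcr6 90 over all 12, and Cxcr2 had a mean of 0.823 to 1.1 CPM per group; these receptors are among those that bind members. The atypical receptors take up chemokines without signalling through G proteins. Of these, Ccbp2 (now Ackr2, a scavenger of CC chemokines) went from 0.189 ± 0.0564 to 0.0104 ± 0.0181 CPM with CK666 (SD, n = 3). Ccrl1 (now Ackr4) went from 0.257 ± 0.076 to 0.0494 ± 0.0246 CPM (log2FC -2.35). Both were called lower, but they passed the low-count filter through the Ctrl and CytoD libraries, where they were higher. These calls therefore do not test the falls.

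Proteases that shed or trim chemokines were tested for 5 of 10 genes, and 3 rose with CytoD while 3 fell with CK666. Of all tested genes, 19.1% were called higher with CytoD and 18.7% lower with CK666, and the list was not tested as a set. Adam17, which sheds CX3CL1, was at 120 ± 9.39 CPM in Ctrl and 198 ± 4.28 CPM with CytoD (log2FC 0.73, SE 0.0917, adjusted p = 5.99e-05). Adam10, which sheds both membrane chemokines, fell from 176 ± 3.2 to 118 ± 20.6 CPM with CK666 (log2FC -0.58, SE 0.103, adjusted p = 0.000652). Mmp13, a collagenase, rose 8.14-fold with CytoD and fell 2.03-fold with CK666.

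The genes of the NF-kB pathway changed in both directions. Of all tested genes, 19.1% were called higher and 18.9% lower with CytoD, and 22.5% and 18.7% with CK666. The counts of calls here are descriptions beside these shares. Of 11 subunits and kinases 3 rose and 2 fell with CytoD, and 1 rose and 2 fell with CK666. Rela, the transactivating subunit, fell with both single compounds (log2FC -0.308 with CytoD and -0.294 with CK666). Of 9 tested feedback inhibitors 3 rose and 1 fell with CytoD, and 2 rose and 3 fell with CK666. Without CK replicate 3, 0 subunits and kinases rose and 3 fell with CK666, and 1 feedback inhibitor rose and 3 fell. The share of all genes in that fit is not given here. Nfkbiz, an NF-kB-induced regulator, rose with CytoD (log2FC 0.755, adjusted p = 0.000399) and fell when CK666 was added to CytoD (-0.746, adjusted p = 0.000586), as Cxcl1 did, with an interaction of -1.06 (adjusted p = 0.00202). Nfkbia, which encodes the inhibitor IkB-alpha, rose with CK666 (0.575, adjusted p = 6.29e-05), whereas Tnfaip3, which encodes the inhibitor A20, fell (-0.677, adjusted p = 0.000125).

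Other inflammatory genes also changed in both directions. Of all tested genes, 19.1% were called higher and 18.9% lower with CytoD, and 22.5% and 18.7% with CK666. The shares were 15.8% and 14.3% when CK666 was added to CytoD. The counts that follow are descriptions beside these shares, and no list was tested as a set. Of 13 tested inflammatory cytokines and NF-kB targets, 3 rose and 2 fell with CytoD and 3 rose and 5 fell with CK666. Lcn2, an iron-sequestering protein of the acute phase, rose 4.45-fold with CytoD, while Ptgs2, the inducible prostaglandin synthase, fell from 16.6 ± 3.04 to 6.04 ± 0.34 CPM and Tnfaip6 fell 3.17-fold. Of 17 interferon axis genes 4 rose and 1 fell with each single compound, the largest rise being that of Iigp1, an immunity GTPase, from 0.533 ± 0.329 to 11.9 ± 1.27 CPM with CytoD and 6.02 ± 0.849 CPM with CK666. Of 16 upstream cytokine and pattern receptors 5 rose and 4 fell with CytoD, 2 rose and 4 fell with CK666, and 8 fell and 0 rose when CK666 was added to CytoD, which includes Ifngr1 (log2FC -0.795, adjusted p = 3.35e-06). Of 10 factors that control the decay of cytokine mRNA, 2 rose and 4 fell with CytoD, and 2 rose and 3 fell with CK666. In the fit without CK replicate 3, 1 of these factors rose and 3 fell with CK666. Of the inflammatory cytokines and NF-kB targets, 3 rose and 6 fell there. The share of all genes in that fit is not given here. Without CK replicate 3 the CK666 against Ctrl log2FC was 2.86 for Ccl11 and -2.12 for Ccrl1, both given without a p. For Adam10 it was -0.492 (adjusted p = 1.86e-05). It was 0.514 for Nfkbia (adjusted p = 0.00011) and -0.622 for Tnfaip3 (adjusted p = 2.91e-05). Ccbp2 was then at 0 counts in the CK group, also given without a p. The gene lists were chosen with earlier results of these data known.

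Some markers of other cell types differed between groups. Of 17 macrophage markers found, 7 were tested, and Ptprc, Emr1, Tyrobp and C1qb had 0 counts in all 12 libraries. Their summed level was 11.3 to 12.6 CPM in Ctrl, 16.6 to 18.2 CPM with CytoD, 10.5 to 12 CPM with CK666 and 10.2 to 10.6 CPM with both. With CytoD 2 of the 7 tested were called, beside 37.9% of all genes. Both were higher (Lyz2 3.4-fold and Cybb 3.36-fold), 0 were called lower, and the median log2FC of the 7 was -0.0408. Csf1r went from 3.05 to 2.36 CPM and Cd14 from 4.31 to 3.64 CPM, neither called. The 7 neutrophil markers summed to 1.3 to 2.45 CPM in Ctrl, 2.75 to 3.86 with CytoD, 1.54 to 4.07 with CK666 and 2.7 to 4.83 with both. S100a8 was higher in each treated group, and its partner S100a9 was at 0 in every library. Because S100a8 passed the low-count filter only through the treated libraries, its calls against Ctrl do not test that rise. The 9 endothelial markers summed to 1.59 to 2.45, 2.71 to 3.18, 1.34 to 1.78 and 3.21 to 3.99 CPM in the same order, with Emcn and Cldn5 at 0. Vwf made up most of this sum (means 1.39, 2.22, 1.19 and 3.18 CPM). Tek, the other one tested, went from 0.475 CPM in Ctrl to 0.107 CPM with both compounds (log2FC -2.19, edgeR adjusted p = 0.0494). The 12 lymphoid and erythroid markers summed to at most 0.532 CPM, with 7 of them at 0. The summed stromal markers were 30300 to 32900 CPM in Ctrl, 34100 to 36000 with CytoD, 17900 to 19200 with CK666 and 15800 to 16700 with both. This sum includes the chemokine Cxcl12, whose mean went from 8330 to 18100 CPM with CytoD. Other large parts fell with CytoD, Col1a2 from 9220 to 6760, Col1a1 from 5670 to 3310 and Vim from 5050 to 2970 CPM. Of the 15 tested stromal markers, 4 were called higher and 5 lower with CytoD. The part of these markers in the chemokine results was not tested.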

How the data were processed

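Deposited files were used as they stood. Per the file headers, the authors' table gives a count and an RPKM value (reads scaled to the listed length and to library size) for each gene and library, with the coding length; CASAVA 1.9, TopHat and HTSeq are listed in the submitters' processing notes, with hg19, a human build. Rows carry mouse symbols, and the members' coordinates match the mouse build GRCm38 (GENCODE M21), so positions are given on GRCm38. Strand use in counting is not given in the sources used here. The authors' RPKM values were used only to compare levels between genes. Counts were analysed in edgeR 4.0.16 under R 4.3.3: filterByExpr (minimum count 10, 13534 of 23358 rows kept), TMM scaling, and a quasi-likelihood fit with a mean for each of 4 groups over all 12 libraries. The SE is the log2 fold change over the square root of F, and 95% intervals use a t quantile with the median prior degrees of freedom. Tests were 2-sided and adjusted within, not across, the 7 comparisons. The fit was checked on simulated counts. No library was left out. Alternatives were DESeq2 1.42.0, RLE scaling, no filter, halved counts, only the 2 groups compared, a replicate block, each library left out, and a correction for gene length that was chosen after seeing the data. Same-numbered libraries of different groups deviated together weakly (r -0.0789 to 0.256 over 18 pairs, 4 over 0.1), so they were not treated as pairs. All 9 members are named. Of each other list up to 2 called genes per direction with the largest change could be named, and up to 4 ligands. Of the marker lists, genes that weigh most in a sum or differ from it are named as well. Likeness was the Pearson correlation of log2 CPM (prior count 2). The members, lists and rules were chosen with earlier results of these data known. Depth was 48930210 to 69269716 counts per library.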

Additional observations from a re-analysis of the deposited data

Results flagged for a closer look

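For 2 members the change with CytoD differed between cells with and without CK666 by a test of the difference itself. For Cxcl1 the CytoD+CK against CK log2FC less the CytoD against Ctrl log2FC was -2.212 (SE 0.278, edgeR adjusted p = 0.000437). For Cxcl14 the difference was -1.835 (SE 0.336, edgeR adjusted p = 0.00382). With 3 libraries a group, no single library was tested as an outlier for a member; how far apart the libraries lay within a group is given in the report.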

How the results depend on the processing

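Over 42 member results and their alternatives, 516 of 576 values kept direction and side of the threshold, 26 passed only under the alternative, 13 no longer passed, and 21 changed sign. The calls of Cxcl1, Cxcl14, Ccl2 and Cx3cl1 with CytoD against Ctrl, of Cxcl1, Ccl2 and Cx3cl1 with CK666 against Ctrl, and of the Cxcl1 and Cxcl14 interaction held under every alternative run. Of the 6 tested members, CytoD+CK against CK called 1, but 3 with DESeq2, 0 with only the 2 groups fitted, and 0 to 3 with 1 library left out; the interaction called 2, but 4 with DESeq2; CK against Ctrl called 3, and 3 to 5 with 1 library left out (5 without CK replicate 1). With the replicate block, counts of calls were 4 for CytoD and 4 for CK666 against Ctrl, 3 for both against Ctrl, 5 for CytoD+CK against CytoD, 2 for CytoD+CK against CK, 3 for CK against CytoD and 4 for the interaction; the libraries share only a number. The cause of these shifts was not tested. None of the values that changed sign was called in either fit. For Ccl7 with both compounds against Ctrl (0.00) it was -0.0304 with RLE, -0.0186 without the filter, -0.0301 with DESeq2, -0.0273 with halved counts, -0.0294 with 2 groups, -0.121 with the length correction and -0.131 to 0.0833 with 1 library left out. With the length correction Ccl7 was -0.024 for CK666 against Ctrl and -0.0967 against CytoD. With 1 library left out, the sign changed within these ranges: for Ccl7, -0.0353 to 0.121 in CytoD against Ctrl, -0.0183 to 0.421 in CK against Ctrl (called at 0.421, without CK replicate 1), -0.189 to 0.0244 in CytoD+CK against CytoD and -0.0679 to 0.362 in CK against CytoD; for Cxcl16, -0.0229 to 0.367 in CK against Ctrl and -0.223 to 0.139 in CK against CytoD; for Cxcl1, -0.34 to 0.0646 in CytoD+CK against CK; for Cx3cl1, -0.173 to 0.0467 in CK against CytoD; and for Ccl2, -0.0384 to 0.264 in CytoD+CK against Ctrl and -0.0192 to 0.34 in the interaction. Ccl5, Ccl8 and Cxcl5 are limited by depth, at 0 to 12 counts in a library.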
